A study of Rattus norvegicus with 39 samples.

Results

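The cerebral cortex of 12-month-old male BN rats fed ad libitum on a plain diet (12 m AL) was compared with that of rats of the same age fed ad libitum on the same diet with α-lipoic acid (12 m AL+LA). Libraries were chosen by the feeding group in their labels, which gave 3 pools for each diet, 6 of the 39 libraries of the series. Each library is a pool of RNA from 2 rats, so the comparison rests on 12 rats. All 12 rats ate the plain CRM diet until 2 months of age and were then housed singly on their diet. The AL+LA diet held 1.5 g/kg of a racemic mixture of DL-thioctic acid, another name for α-lipoic acid. Neither group was calorie restricted, and the supplement is the stated difference between them. The labels name whole cerebral cortex as the tissue, so every value is an average over its cell types and layers, in males of 1 strain only. The spread between pools is narrower than that between single rats would be.

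Lipoic acid is a sulphur-containing fatty acid that cells make in mitochondria and attach to the pyruvate, 2-oxoglutarate and branched-chain dehydrogenases and to the glycine cleavage system, where it serves as a swinging arm between active sites. Taken in the diet as the free acid it is reduced to dihydrolipoic acid, a thiol antioxidant that can also bind metal ions. It is commonly used to activate the transcription factor Nrf2, which drives genes for glutathione, thioredoxin and iron storage.

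Before the diets were compared, the libraries were checked for depth and for tissue. Reads counted on genes were 3813173 in pool 4, 494091 in pool 5 and 2366549 in pool 6 of 12 m AL, and 3257510, 5214247 and 3764201 in pools 37, 38 and 39 of 12 m AL+LA. Pool 5 is the shallow library, in which 1 CPM (a read count scaled to the total of its library) stands for 0.494 reads. The main counts of genes below are therefore given with and without it, and the others with it. Every pair of pools within a group differed by more than sampling noise (chi-square per degree of freedom 3.24 to 9.99), so all 6 were kept as separate replicates. Reads that did not align made up 30.43% to 36.13% of the reads in 12 m AL and 39.30% to 41.01% in 12 m AL+LA, a mean of 33.6% ± 2.92 against 39.9% ± 0.973 (SD, n = 3 pools; two-sided exact permutation test, p = 0.1, the smallest p that 3 pools against 3 allow). Over the whole series this share was 27.48% to 36.13% in the 9 libraries of plain AL and 34.08% to 43.16% in the 30 of other diets, so that the diet and a difference in how libraries were made cannot be told apart by it.

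The cortical markers Neurod6 and Nrgn were present in all 6 libraries, at 35 to 64.2 CPM and 83.4 to 191 CPM, but genes of the cerebellum were present as well in 2 of the 3 plain-diet pools. Gabra6, a GABA receptor subunit of cerebellar granule cells, was at 1.10, 126 and 629 CPM in pools 4, 5 and 6 of 12 m AL and at 0.646, 2.73 and 0.287 CPM in pools 37, 38 and 39 of 12 m AL+LA. Fat2, a cadherin of the same cells, was at 2.74, 134 and 721 CPM in 12 m AL and at 1.75 to 2.26 CPM in 12 m AL+LA. Pools 5 and 6 were thus high for both genes, while pool 4 was near the supplemented pools. The mean log2 CPM of 8 cerebellar markers, called the cerebellar score here, was 3.94, 6.62 and 8.05 in pools 4, 5 and 6 and 3.94, 4.18 and 3.92 in pools 37, 38 and 39. Of these 8 genes 5 were lower in 12 m AL+LA, with a median log2 fold change of −2.26 over the list. That 0 of the 8 passed without pools 5 and 6, or with the score as a covariate in the fit, follows from how the score and the pools were chosen and is no test. Genes of the thalamus and brainstem were lower in 12 m AL+LA too, 3 of 4 tested with or without pool 5. Of all genes with a name 17.4% had an adjusted p under 0.05. With the cerebellar score as a covariate 2 of the 4 thalamus and brainstem genes were still lower. Slc17a6, the vesicular glutamate transporter of subcortical neurons, was at 58.4, 63.1 and 100.9 CPM in 12 m AL and at 34.5, 20.7 and 21.8 CPM in 12 m AL+LA (log2 fold change −1.57, SE 0.237, adjusted p = 0.000804). Tcf7l2, a transcription factor of thalamic neurons, was at 28.2, 20.3 and 46.7 CPM against 8.07, 7.02 and 9.76 CPM (log2 fold change −2.03, SE 0.290, adjusted p = 0.000498). All 3 plain-diet pools lay above all 3 supplemented pools for both genes, pool 4 included. Without pools 5 and 6 the plain diet is left with pool 4 alone, whose spread is then taken from the supplemented pools. Pool 4 was also the only plain-diet pool with a score near those of the supplemented pools. The fit with the score therefore leans mainly on it and is no separate check. The log2 fold change of Tcf7l2 was −1.78 without pools 5 and 6 and −1.71 with the score. In these bulk libraries fewer cells of a type and less RNA per cell cannot be told apart.

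**Figure D1:**
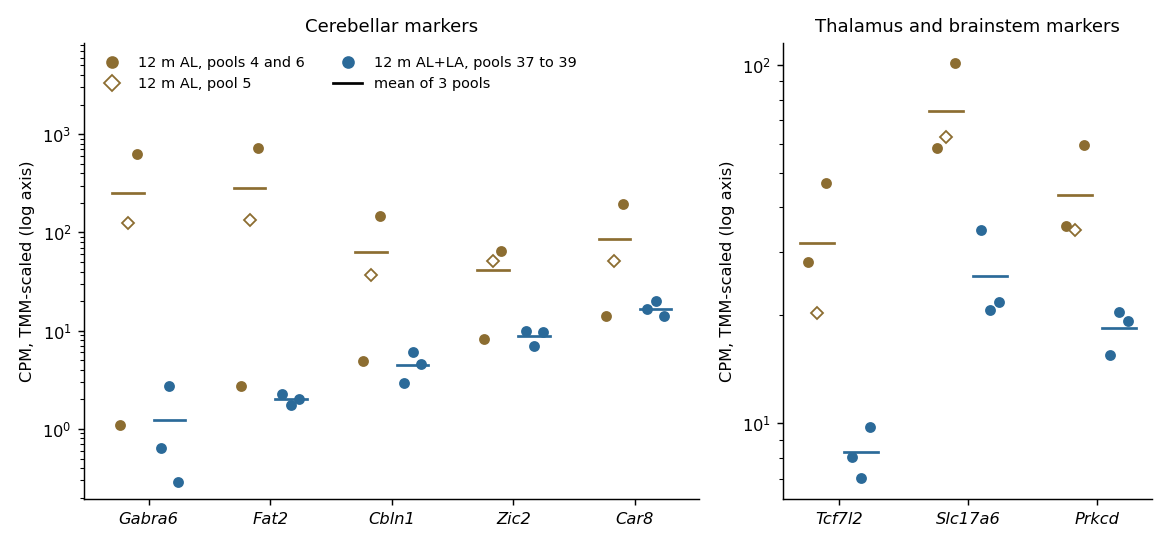
CPM on log axes of 5 cerebellar markers (left) and 3 thalamus and brainstem markers (right) in each pool. Brown points are 12 m AL, with pool 5 as an open diamond, blue points are 12 m AL+LA and bars are means of 3 pools. For Gabra6 pool 4 is at 1.10 CPM and pools 5 and 6 are at 126 and 629 CPM, while for Tcf7l2 the 3 plain-diet pools, at 20.3 to 46.7 CPM, all lie above the supplemented pools, at 7.02 to 9.76 CPM.

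Between the diets 547 of 17230 genes were differentially expressed (DE, an adjusted p under 0.05 in edgeR's quasi-likelihood test). Of all genes tested 1.71% (294 genes) were higher in 12 m AL+LA and 1.47% (253 genes) were lower. Unadjusted p was under 0.05 for 2846 genes. A typical DE gene changed by about a doubling, with a median absolute log2 fold change of 1.05. In 491 of the 547 genes (89.8%) the 3 supplemented pools lay entirely above or entirely below the 3 plain-diet pools, against 20.6% of all genes tested, a description only, since these pools also made the call. Without pool 5 the count was 457, of which 227 (1.32% of all genes) were higher and 230 (1.33%) lower, and 378 genes were DE both with and without it, all with the same sign. Leaving out another pool gave 953 genes without pool 4, 494 without pool 6, 343 without pool 37, 193 without pool 38 and 327 without pool 39. A set of 133 genes, 76 higher and 57 lower, was DE in the full comparison and without each of the 6 pools. The count was 515 without pools 5 and 6, with 1 plain-diet pool against 3 and no spread of its own, and 238 with the cerebellar score as a covariate. Of the 547 genes 529 and 537 kept their sign in these fits, a description only, since the same pools made the call. Both fits lean mainly on pool 4 for the plain diet.

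Pool 5 had few reads per gene, a median of 6 over all genes tested and 19 over the DE genes, and it had no read at all for 3144 genes (18.2%), 18 of which were DE. Its removal changed the log2 fold changes of the DE genes by a median of 0.07. The 169 genes DE only with pool 5, 103 higher and 66 lower, all had an unadjusted p under 0.05 without it, and their highest adjusted p there was 0.147. The 5 named ones with the smallest adjusted p were Rps7 (ENSRNOG00000008551), Zic2, Atp5o, Arc and Atp5j2. A second identifier of the first symbol, RPS7 (ENSRNOG00000027694), had a log2 fold change of 1.02 (adjusted p = 0.00154) and passed in all 17 alternatives. Zic2, a zinc-finger gene of cerebellar granule cells, had a log2 fold change of −2.12 (adjusted p = 0.0133) with pool 5 and −1.999 (adjusted p = 0.0655) without it, and over all alternatives its adjusted p ran from 1.67e-11 to 0.951. A further 79 genes, 36 higher and 43 lower, were DE only without pool 5. In 0 of the 79 did pool 5 lie between pools 4 and 6, which describes how they were chosen, since a pool that lies apart widens the spread. Tpt1, which encodes a growth-associated tubulin-binding protein, is an example, with 207, 301 and 206 CPM in pools 4, 5 and 6 and 313, 353 and 327 CPM in pools 37, 38 and 39. All 3 supplemented pools were above the plain-diet pools, and the adjusted p was 0.0889 with pool 5 and 0.0226 without it, within a range of 0.0125 to 0.558 over the alternatives. RGD1565368, RGD1564688, Tmem100 and Hdgfrp3 were the other named genes of this kind with the smallest adjusted p.

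**Figure D2:**
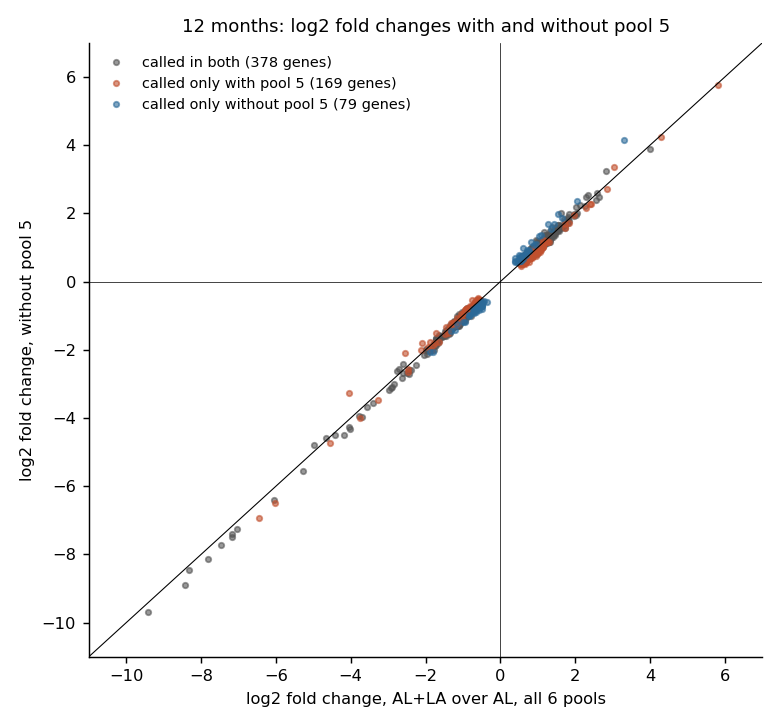
Log2 fold change of 12 m AL+LA over 12 m AL with all 6 pools (x axis) and without pool 5 (y axis) for the 378 genes DE in both (grey), the 169 DE only with pool 5 (red) and the 79 DE only without it (blue). The line marks equal values, and all points lie close to it, in the quadrants of equal sign.

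Genes of the cytosolic ribosome, the particle of RNA and protein that carries out translation, were prominent among those that rose. Of the 66 ribosomal protein genes tested, a group chosen after their values were seen, 28 were higher in 12 m AL+LA and 0 lower. These counts are of Ensembl identifiers, and the 28 carry 22 symbols (letter case ignored). A log2 fold change above 0 was found for 61 of the 66. The median log2 fold change was 0.66, against 0.01 over all genes tested. The count was 25 higher and 0 lower without pool 5, and 22 higher and 2 lower with the cerebellar score as a covariate. Only 1669 of the genes tested carry a name here, taken from tables of DE genes of these libraries, and 17.4% of the named genes were DE, so a count over any named group starts from that share.

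Rps29, a protein of the small subunit, was at 79.5, 77.3 and 121 CPM in pools 4, 5 and 6 of 12 m AL and at 264, 324.5 and 317 CPM in pools 37, 38 and 39 of 12 m AL+LA. RPL38, of the large subunit (ENSRNOG00000048701), was at 17.6, 20.3 and 34.2 CPM and at 85.2, 105 and 96.2 CPM. Rps26, a small-subunit protein next to the mRNA exit channel, was at 10.2, 12.2 and 21.7 CPM and at 54.9, 73.3 and 54.8 CPM. For all 3 genes the supplemented pools were all above the highest plain-diet pool, pool 6. The log2 fold changes were 1.68 (SE 0.178, adjusted p = 1.9e-05) for Rps29, 1.97 (SE 0.226, adjusted p = 4.93e-05) for RPL38 and 2.04 (SE 0.263, adjusted p = 0.000191) for Rps26, and all 3 genes passed in every alternative that tested them. Rpl8 rose by 1.49 (SE 0.182, adjusted p = 8.73e-05), Rpl27a by 1.16 (SE 0.172, adjusted p = 0.000804), Rps21 by 1.41 (SE 0.218, adjusted p = 0.00105) and Rpl22l1, a paralogue of Rpl22, by 1.13 (SE 0.176, adjusted p = 0.00105). Ribosomal protein genes have many near-identical processed copies, and several symbols here stand for more than 1 Ensembl gene (RPL38 for 4 DE identifiers), so with multiply mapping reads left out the split of reads between copies is uncertain. Of the 33 tested genes that the tables class as pseudogenes, 11 were higher and 0 lower. Of the 1765 classed as protein-coding 176 were higher and 141 lower. The class, like the name, comes from tables of DE genes of these libraries, and 15348 of the genes tested have none.

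The transcripts of ribosomal protein genes begin within a run of pyrimidines, the 5′ terminal oligopyrimidine tract, through which their translation is regulated. The sequences around the annotated start are shown to let that feature be seen in the genes that rose. Each line gives 15 bases before and 15 after the RefSeq start on the coding strand of GRCr8, a later build than that of the counts, for the 6 ribosomal protein genes with the smallest p in the comparison of the diets whose symbol is in the RefSeq table (letter case ignored; Rps7 by ENSRNOG00000027694), with the letters CTTTC in capitals where they occur.
Rpl38, chr10:100200420-100200449, plus strand: cttcgttctttttccgttgttcggtgctcg
Rps26, chr7:1643390-1643419, minus strand: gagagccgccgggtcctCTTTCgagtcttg
Rpl27a, chr1:172974558-172974587, plus strand: cgagacttggtgggctcctccctCTTTCtt
Rps21, chr3:187724023-187724052, plus strand: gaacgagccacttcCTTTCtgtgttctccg
Rpl22l1, chr2:113683181-113683210, plus strand: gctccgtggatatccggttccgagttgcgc
Rps7, chr6:50999431-50999460, minus strand: tcgcgagagctgtgtctCTTTCtaagccgg
On the coding strand CTTTC occurred in 10 of the 16 ribosomal protein genes that rose and had a start in the table (62.5%), in 8 of 18 that did not pass (44.4%) and in 1200 of 33469 windows of all genes (3.59%). On the other strand it occurred in 0 of the 16, 0 of the 18 and 1279 of all windows (3.82%). Rpl38 holds a run of T without these letters, and Rpl22l1 does not hold them.

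**Figure D3:**
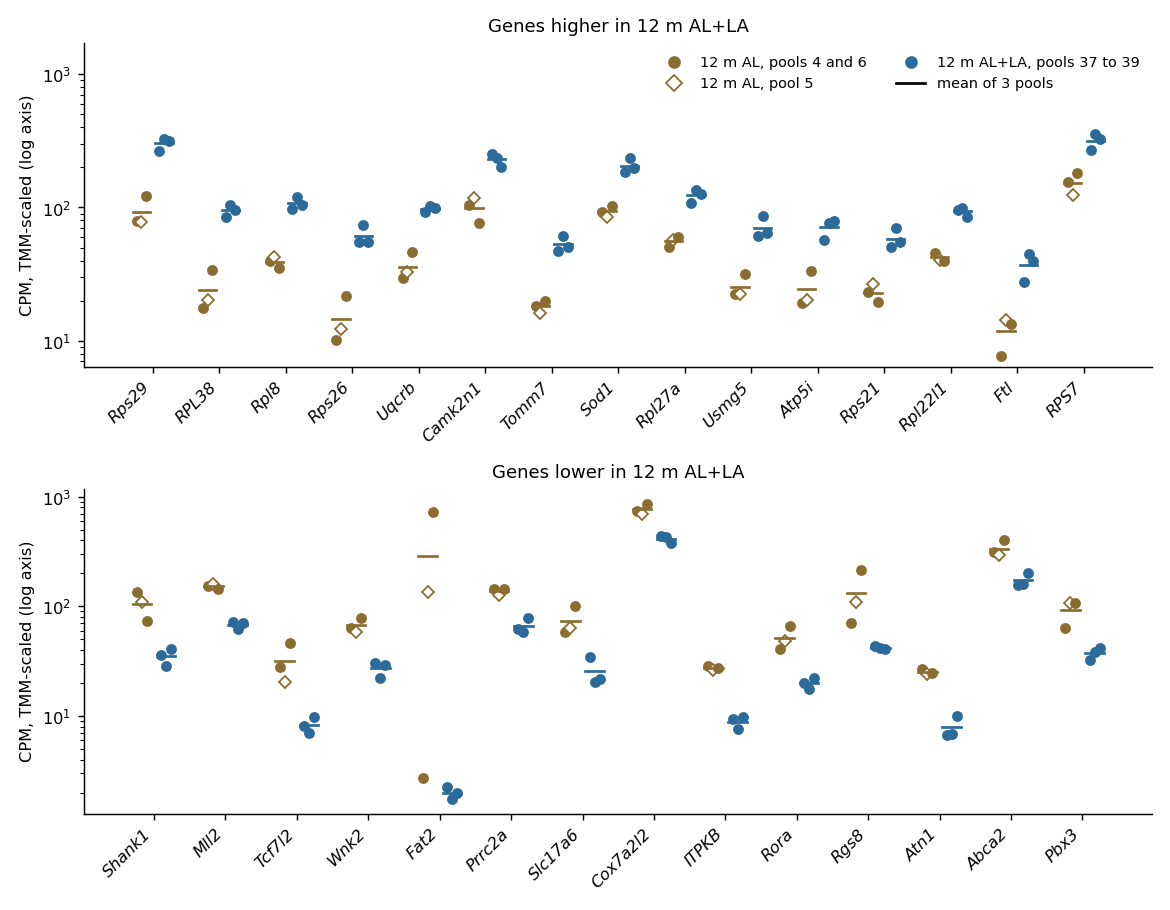
CPM on log axes of 15 genes that were higher and 14 that were lower in 12 m AL+LA, the named genes that lead by adjusted p among DE genes whose pools do not overlap between the diets. Brown points are 12 m AL (pool 5 an open diamond), blue points are 12 m AL+LA and bars are means of 3 pools. Rps29 is at 77.3 to 121 CPM in 12 m AL and 264 to 324.5 CPM in 12 m AL+LA, and Shank1 at 73.3 to 135 CPM and 28.9 to 40.5 CPM, while Fat2 spans 2.74 to 721 CPM in 12 m AL.

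Nuclear genes of the mitochondrial respiratory chain, which pass electrons to oxygen and make ATP, moved in the same direction. Of 21 tested, 10 were higher and 1 lower in 12 m AL+LA, with a median log2 fold change of 0.63 (6 higher and 1 lower without pool 5, 9 and 1 with the cerebellar score). Of all 1669 named genes 156 were higher and 135 lower. Uqcrb, a subunit of complex III, was at 29.4, 32.5 and 46.3 CPM in 12 m AL and at 93.3, 102 and 99.6 CPM in 12 m AL+LA (ENSRNOG00000024967, log2 fold change 1.43, SE 0.194, adjusted p = 0.000305), and its second identifier, ENSRNOG00000032204, rose by 1.06. Cox5b, a subunit of cytochrome c oxidase, was at 48.3, 59 and 117 CPM against 168, 212 and 182 CPM (log2 fold change 1.30, SE 0.233, adjusted p = 0.0029). The groups did not overlap for either gene, with pool 6 the highest of the plain-diet pools. Cox7b, of the same complex, rose by 0.87 (SE 0.153, adjusted p = 0.00261), and the ATP synthase genes Atp5i, Usmg5, Atp5o and Atp5j2 rose by 1.52, 1.45, 0.85 and 0.92, of which Atp5o alone is on the list, and Atp5o and Atp5j2 did not pass without pool 5. The other ATP synthase gene on the list, Atp5c1, picked after its values were seen, had a log2 fold change of 0.01 (adjusted p = 0.986), with overlapping pools. The exception was Uqcrc1, a core protein of complex III, at 129, 116 and 125 CPM in 12 m AL and 62.3, 81.5 and 69.2 CPM in 12 m AL+LA (log2 fold change −0.80, SE 0.165, adjusted p = 0.00822), which passed in 15 of 17 alternatives. Cox7a2l2, a relative of the cytochrome c oxidase subunit genes that was not on the list, was lower as well, by 0.89 on the log2 scale (SE 0.140, adjusted p = 0.00118). Tomm7, part of the channel that imports proteins into mitochondria, rose by 1.53 (SE 0.218, adjusted p = 0.000498).

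Transcripts of the mitochondrial genome did not move as a block. Its 3 named protein genes did not pass, with log2 fold changes of −0.09 for COX2, −0.13 for ATP8 and −0.19 for ND3. The sign of the first turned in 3 alternatives and that of the second in 3. Genes classed as mitochondrial tRNA were chosen after the values were seen, and their class comes from tables of DE genes of these libraries. By contrast 5 of the 10 tested were higher and 0 lower (4 higher without pool 5), against 176 and 141 of 1765 classed as protein-coding. The median log2 fold change of the 10 was 1.16. The most abundant, ENSRNOG00000032112, was at 6157, 12210 and 6619 CPM in 12 m AL and at 26450, 25140 and 25110 CPM in 12 m AL+LA, a log2 fold change of 1.62 (SE 0.197). Mitochondrial ribosomal proteins, also chosen after the values were seen, had 2 of 17 higher and 0 lower, Mrpl32 and Mrpl52, with a median of 0.55. Without pool 5 the count was also 2 higher and 0 lower.

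Genes of antioxidant defence and metal handling, a class of interest for a thiol supplement, changed in part. Sod1, the cytosolic superoxide dismutase, was at 93.2, 85.4 and 102 CPM in 12 m AL and at 184, 235 and 199 CPM in 12 m AL+LA (log2 fold change 1.12, SE 0.161, adjusted p = 0.000533). It passed in all 17 alternatives, and the lowest supplemented pool was well above the highest plain-diet pool. Prdx5, a mitochondrial peroxiredoxin, rose by 0.91 (SE 0.202, adjusted p = 0.0145). These were 2 of 7 genes of superoxide and peroxide scavenging, beside 17.4% of all named genes that were DE. Gpx1 (0.42, adjusted p = 0.394), Txnrd1 (−0.06, adjusted p = 0.934), Glrx, Txnip and Txndc17 did not pass. All 3 metallothioneins tested rose, small proteins that bind zinc and copper through cysteines. Mt3, the brain form, was at 47.7, 83.4 and 77.9 CPM against 99.7, 156 and 170.5 CPM (log2 fold change 1.10, SE 0.220, adjusted p = 0.00671). MT1 and Mt2A rose by 1.62 and 1.14, and MT1 rests on 2 to 13 reads in the plain-diet pools. Without pool 5 Mt3 and MT1 passed and Mt2A did not.

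The subunits of ferritin, the iron-storage shell and a target of Nrf2, moved in opposite directions. Ftl, the light chain, was at 7.68, 14.2 and 13.3 CPM in 12 m AL and at 27.8, 44.9 and 39.3 CPM in 12 m AL+LA (log2 fold change 1.81, SE 0.287, adjusted p = 0.00121). Fth1, the heavy chain, was at 601, 734 and 630.2 CPM and at 411, 426 and 458 CPM (log2 fold change −0.60, SE 0.140, adjusted p = 0.0203). Neither set of pools overlapped. Fth1 had an adjusted p of 0.055 without pool 5 and passed in 11 of 17 alternatives (0.00102 to 0.163), and Ftl passed in 15 of 16 (1.48e-08 to 0.207). The other Nrf2 targets tested, Slc7a11, Taldo1 and Txnrd1, and its inhibitor Keap1 did not pass, and over the 6 genes of that list 1 rose and 1 fell. Of the 5 glutathione S-transferases none passed, although Gstm1 was at 74.6, 71.2 and 75.4 CPM against 109, 124 and 99.9 CPM without overlap (log2 fold change 0.59, adjusted p = 0.0543). Of the enzymes that carry or attach lipoate only 3 of 25 genes had a name here. Pdp1, a phosphatase that activates pyruvate dehydrogenase, Bola3, which is needed for lipoate attachment, and Amt, of the glycine cleavage system, had log2 fold changes of 0.47, 0.68 and −0.12 and did not pass.

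Heat shock genes, which encode chaperones, were higher for 4 of 6 identifiers tested, with or without pool 5, against 156 of the 1669 named genes. Of the 4 identifiers 2 are of Hspa1b. Hsph1, a co-chaperone of the Hsp70 family, was at 274, 272.5 and 218 CPM in 12 m AL and at 392, 511 and 558 CPM in 12 m AL+LA (log2 fold change 0.94, SE 0.161, adjusted p = 0.00198). Hspa1b, the inducible Hsp70, has 2 near-identical identifiers. ENSRNOG00000050647 was at 4.66, 0 and 5.001 CPM and at 9.04, 34.3 and 31.6 CPM (log2 fold change 2.55, SE 0.466, adjusted p = 0.00327). ENSRNOG00000045654 had a log2 fold change of 2.28, with overlapping pools (pool 5 at 10.2 CPM and pool 37 at 8.71 CPM). Pools 38 and 39 were well above pool 37 for this gene, so the size of the rise differed between the supplemented pools. Hspe1, a mitochondrial chaperonin, rose by 0.81 (adjusted p = 0.0464, past the threshold in 9 of 17 alternatives), and Cryab and Hspa4l did not pass. Of 8 genes of cholesterol synthesis 2 rose, Hmgcs1, which makes HMG-CoA, by 0.72 (SE 0.158, adjusted p = 0.0127) and Insig1, the sterol sensor that holds back the pathway, by 0.79 (SE 0.184, adjusted p = 0.019). Both passed without pool 5, and neither passed with the cerebellar score as a covariate. Over all named genes 17.4% were DE, so 2 of 8 tells little about the list.

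Among genes of the synapse the scaffold proteins of the postsynaptic density fell. Shank1 was at 135, 110 and 73.3 CPM in pools 4, 5 and 6 of 12 m AL and at 36.1, 28.9 and 40.5 CPM in pools 37, 38 and 39 of 12 m AL+LA. Shank3 was at 63.9, 32.5 and 58.4 CPM and at 22.9, 17.6 and 24.4 CPM. Both genes were lower in all 3 supplemented pools than in any plain-diet pool, with pool 4 the highest for each. The log2 fold changes were −1.60 (SE 0.213, adjusted p = 0.000259) and −1.36 (SE 0.228, adjusted p = 0.00183), and both genes passed in all 17 alternatives. Camk2n1, an inhibitor of the calmodulin-dependent kinase CaMKII, moved the other way, from 104.5, 118 and 77.1 CPM to 251, 234 and 202 CPM (log2 fold change 1.24, SE 0.173, adjusted p = 0.000412). Of 16 genes of the synaptic vesicle, secretory granule and postsynaptic density list 1 rose and 3 fell, with a median log2 fold change of 0.02. Without pool 5 the counts were 1 and 2. Of all named genes 17.4% were DE with all pools. The gene that rose was Rab3b, a GTPase of secretory vesicles, by 1.06 (SE 0.226, adjusted p = 0.0111), and it passed in 13 of 16 alternatives.

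Of 7 glutamate receptor genes 2 fell, with or without pool 5, beside 17.4% of all named genes that were DE. The median log2 fold change over the list was −1.02, and 0 of the 7 passed with the cerebellar score as a covariate. Grin2c, an NMDA receptor subunit, was at 43.1, 40.7 and 59.2 CPM in 12 m AL and at 22.9, 21.6 and 24.1 CPM in 12 m AL+LA (log2 fold change −1.09, SE 0.212, adjusted p = 0.0053). It is strongly expressed in the cerebellum and was highest in pool 6, and its adjusted p was 0.083 with the score, the highest of its alternatives (lowest 0.000159). Rgs8, a regulator of G-protein signalling that is abundant in Purkinje cells, was at 69.9, 110 and 216 CPM and 41.1 to 43.3 CPM (log2 fold change −1.66, SE 0.271, adjusted p = 0.00159, and −0.70, adjusted p = 0.102, with the score, within a range of 2.93e-16 to 0.102).

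Neuropeptide genes, which mark classes of cortical interneurons, were higher for 4 of 5 tested, against 156 of the 1669 named genes. The median log2 fold change of the 5 was 1.21. All 3 supplemented pools lay above all plain-diet pools for each of the 5, as they did for 414 of the 1669 named genes. Vip was at 34, 20.3 and 17.1 CPM in 12 m AL and at 56.8, 78 and 55.7 CPM in 12 m AL+LA (log2 fold change 1.34, SE 0.244, adjusted p = 0.00322). Penk, the enkephalin precursor, rose by 1.21 (SE 0.230, adjusted p = 0.00469), Npy by 1.24 (adjusted p = 0.0365) and Sst by 0.81 (adjusted p = 0.021), while Cck had a log2 fold change of 0.62 (adjusted p = 0.0947). Vip and Penk passed without pool 5 and Sst and Npy did not, and with the cerebellar score Penk alone did. Penk is also abundant in the striatum, and Pde10a, another striatal gene, had a log2 fold change of −0.08. Other markers of inhibitory neurons, Gad1 (−0.35) and Dlx1 (0.76), did not pass. Of 11 immediate early genes, which follow neuronal activity within minutes, Arc alone passed. It was at 195, 102 and 65.4 CPM against 253, 334 and 238 CPM (log2 fold change 1.15, SE 0.257, adjusted p = 0.0148), and its adjusted p was 0.0856 without pool 5 and ran from 1.32e-09 to 0.266 over the alternatives.

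The genes that led by adjusted p among those that fell included several single genes of other roles. Mll2, a histone methyltransferase, was at 155, 159 and 143 CPM in 12 m AL and at 72, 62.8 and 70.3 CPM in 12 m AL+LA, with little spread within either group (log2 fold change −1.15, SE 0.157, adjusted p = 0.000305). Prrc2a, an RNA-binding protein with long proline-rich stretches, was at 145, 128 and 145.5 CPM and 61.6, 58.3 and 78.1 CPM (log2 fold change −1.09, SE 0.165, adjusted p = 0.000804). Both passed in all 17 alternatives, as did Wnk2, a kinase of chloride transport (−1.32, SE 0.198), ITPKB, an inositol trisphosphate kinase (−1.65, SE 0.261), and Abca2, a lipid transporter of the brain (−0.96, SE 0.159). Atn1, a transcriptional co-repressor, fell by 1.70 (SE 0.279, adjusted p = 0.00164) and passed in 16 of 17 alternatives, with an adjusted p of 0.375 after thinning to the depth of pool 5. Of 5 genes of histone acetylation 2 fell, beside 17.4% of all named genes that were DE. The acetyltransferase Crebbp was among them, lower by 0.68 (adjusted p = 0.0259), and 0 of the 5 passed without pool 5. The adjusted p of Crebbp was then 0.0508, within a range of 0.0059 to 0.216 over the alternatives, and Hdac5 and Kat6a, at −0.67 and −0.67, did not pass with pool 5. Of 8 clock genes Rora alone fell, by 1.39 (SE 0.226, adjusted p = 0.00159), and it is also a gene of Purkinje and thalamic cells. Pbx3, a homeobox gene, fell by 1.25 (SE 0.208, adjusted p = 0.00182), and with the cerebellar score its log2 fold change was −0.81 (adjusted p = 0.0681, the highest of its alternatives, with a lowest of 3.97e-08).

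The 2 genes with the smallest adjusted p have no name here and were picked after their values were seen. ENSRNOG00000047746, annotated as protein-coding, was at 14560, 18150 and 13300 CPM in 12 m AL and 2371, 1996 and 2407 CPM in 12 m AL+LA, a log2 fold change of −2.77 (SE 0.156, adjusted p = 4.84e-10). ENSRNOG00000046170 was at 105, 79.3 and 147 CPM and 21.6, 19.3 and 21.8 CPM (log2 fold change −2.45, SE 0.206, adjusted p = 5.72e-07). For both the pools of the diets were far apart. Ribosomal RNA, whose remainder after depletion is counted under Rn28s, did not pass, at 17310 to 29610 CPM in 12 m AL and 21620 to 35650 CPM in 12 m AL+LA (log2 fold change 0.23, adjusted p = 0.593).

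Among markers of glia, 3 of the 10 listed for astrocytes were tested, and 2 of the 3 fell, beside 17.4% of all named genes that were DE. Gfap, the intermediate filament of astrocytes, was at 620.1, 578 and 701 CPM in 12 m AL and at 332, 439 and 372 CPM in 12 m AL+LA (log2 fold change −0.73, SE 0.148, adjusted p = 0.00729). Aqp4, the water channel of astrocyte endfeet, was at 882, 1163 and 968 CPM and 699, 615 and 677 CPM (log2 fold change −0.59, SE 0.143, adjusted p = 0.0238). The pools of the diets did not overlap for either gene, while Gjb6, a connexin of the same cells, had a log2 fold change of −0.08 (adjusted p = 0.891). The summed CPM of the 3 astrocyte genes, made up mostly of Gfap and Aqp4, was 1560 to 1808 in 12 m AL and 1090 to 1109 in 12 m AL+LA. Without pool 5 Gfap passed and Aqp4 did not (adjusted p = 0.0131 and 0.0703). With the cerebellar score as a covariate neither Gfap nor Aqp4 passed (adjusted p = 0.0681 and 0.238, within ranges of 0.000139 to 0.0702 and 0.00278 to 0.238). Cldn11, the tight-junction protein of myelin, rose by 0.74 (SE 0.163, adjusted p = 0.0138), and the oligodendrocyte genes Mog and Opalin did not pass. Of 6 microglial and macrophage genes 0 passed, and 0 of 3 excitatory neuron, 0 of 2 meningeal, 0 of 1 choroid plexus and 0 of 3 blood genes passed. Summed blood genes were at 177 to 514 CPM in 12 m AL and 358 to 607 CPM in 12 m AL+LA. The markers of hypothalamus and pituitary and of endothelium had no named gene here.

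Genes of antigen presentation had lower values with lipoic acid, but the supplemented pools differed among themselves. Cd74, the MHC class II invariant chain, was at 100.7, 144 and 109.6 CPM in 12 m AL and at 12.3, 89.1 and 35.6 CPM in 12 m AL+LA (log2 fold change −1.28, SE 0.376, adjusted p = 0.0674). The pools did not overlap, yet pool 38 was far above pool 37, and none of the 5 MHC class II genes passed (median log2 fold change −1.13). RT1-A1, an MHC class I heavy chain, was at 96.8, 122 and 102.5 CPM and 42.6, 65.7 and 42.8 CPM (log2 fold change −1.04, SE 0.195, adjusted p = 0.00389) and passed in all 17 alternatives. It was 1 of 4 genes of the interferon and MHC class I list, beside 17.4% of all named genes that were DE, and Mx2, Ifit2 and RT1-A2 did not pass. The lists of energy sensing and fatty acid metabolism and of insulin and neurotrophin signalling had 2 tested genes each, and none passed. Prkag2, a subunit of AMP-activated kinase, had a log2 fold change of 0.05, and Pik3r1 and Irs1, which relay the insulin signal, had 0.40 and −0.80.

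**Figure D4:**
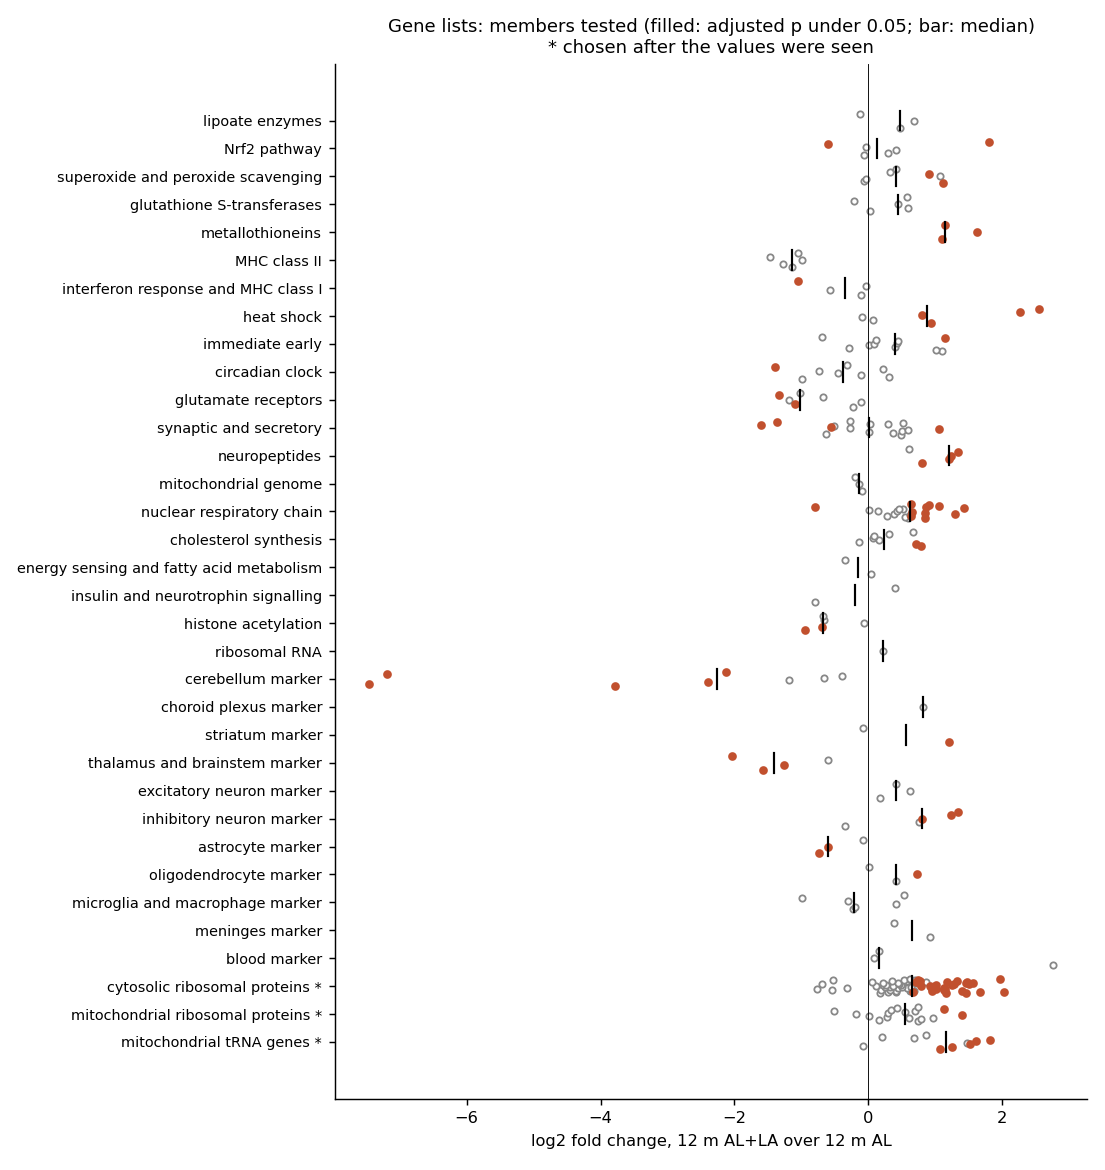
Log2 fold change of 12 m AL+LA over 12 m AL for every tested member of each gene list, 1 list per line. Filled red points have an adjusted p under 0.05, open points do not, and the black bar is the list's median. Cytosolic ribosomal proteins (28 of 66 filled, all above 0) and the respiratory chain (10 above and 1 below 0) lie mostly to the right, and cerebellar and thalamic markers to the left (medians −2.26 and −1.41).

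The same diets were sequenced at 28 months from other rats, 3 pools of AL and 3 of AL+LA, and this comparison shares no library with that at 12 months. At 28 months 528 genes (3.06% of those tested) were higher with lipoic acid and 303 (1.76%) lower. Of the 294 genes higher at 12 months 117 were also higher at 28 months, 39.8% of the 12-month and 22.2% of the 28-month genes. Of the 253 lower genes 72 were lower again, 28.5% and 23.8%. Among the genes higher at 12 months 93.2% had a log2 fold change above 0 at 28 months (median 0.51, against 0.97 at 12 months). Among the lower genes 86.2% were below 0 (median −0.49, against −1.14). The median at 28 months was −0.01 over all genes tested and 0.34 over the named genes. Lower at 12 months and higher at 28 months were 3 genes, Gfap, Fth1 and 1 without a name, and 0 were DE the other way round. Ribosomal protein genes were higher for 29 of 66 identifiers and lower for 1 at 28 months, and respiratory chain genes higher for 10 of 21 and lower for 0. Over all named genes 23.4% were higher and 13.1% lower at that age. Rps29 rose by 1.60 (SE 0.193), RPL38 by 1.26 and Rpl8 by 1.78 at 28 months, and Shank1 fell by 0.88 (adjusted p = 0.0364). Sod1, with a log2 fold change of 0.43 (adjusted p = 0.128), did not pass there. Cerebellar genes were again uneven between plain-diet pools, with a score of 7.59 and 7.54 in 28 m AL pools 7 and 9, 3.97 in pool 8 and 3.86 to 4.04 in 28 m AL+LA, and all 8 were lower. Their part in the overlap of the ages was not tested, nor was that of the difference in unaligned reads between plain AL and other diets.

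A direct test of the difference between ages, the interaction of diet and age, called 32 genes (0.186%), of which 22 had a log2 fold change below 0 at 12 months and above 0 at 28 months. Gfap had the smallest adjusted p of these. It was at 140.4, 203 and 171 CPM in 28 m AL pools 7, 8 and 9 and at 693, 632 and 862 CPM in 28 m AL+LA pools 34, 35 and 36, a log2 fold change of 2.09 (SE 0.159, adjusted p = 1.08e-06) in place of −0.73 at 12 months. The difference of the log2 fold changes was 2.81 (SE 0.223, adjusted p = 8.61e-08). Its level in plain-diet rats was thus 578 to 701 CPM at 12 months and 140.4 to 203 CPM at 28 months, while in supplemented rats it was 332 to 439 CPM and 632 to 862 CPM. Fth1 fell by 0.60 at 12 months and rose by 0.55 (adjusted p = 0.0197) at 28 months, a difference of 1.13 (SE 0.188, adjusted p = 0.00736). MHC class II genes had the same signs, and 3 of the 5 were past the interaction, but none of the 5 was DE at 12 months. Cd74 was at 20.6, 46.7 and 25.7 CPM in 28 m AL and 76.7, 102 and 87.1 CPM in 28 m AL+LA, with a difference of 2.80 (adjusted p = 0.0246). RT1-Db1 and RT1-Bb were not past the interaction (adjusted p = 0.164 and 0.201). At 28 months alone 5 of 5 MHC class II genes rose. Microglial and macrophage markers moved with them, 4 of 6 higher at 28 months (Tmem119, Aif1, Itgam and Tyrobp, median log2 fold change 0.86 over the 6), with Itgam past the interaction (difference 2.49, adjusted p = 0.0246, a gene picked after its values were seen), and their part in the MHC values was not tested. Rpl22l1 was the 1 ribosomal protein gene past the interaction, with a log2 fold change of −0.22 at 28 months (adjusted p = 0.554, difference −1.37, adjusted p = 0.0271). The count of 32 was 20 without pool 5, 9 without pool 7, 12 without pool 9, 106 without pool 8, and between 13 and 38 without each of the others. With the cerebellar score as a covariate it was 96. Without pools 5, 6, 7 and 9, which hold the cerebellar reads, the plain diet is left with pool 4 at 12 months and pool 8 at 28 months. Neither then has a spread of its own, so no count is given for that fit.

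**Figure D5:**
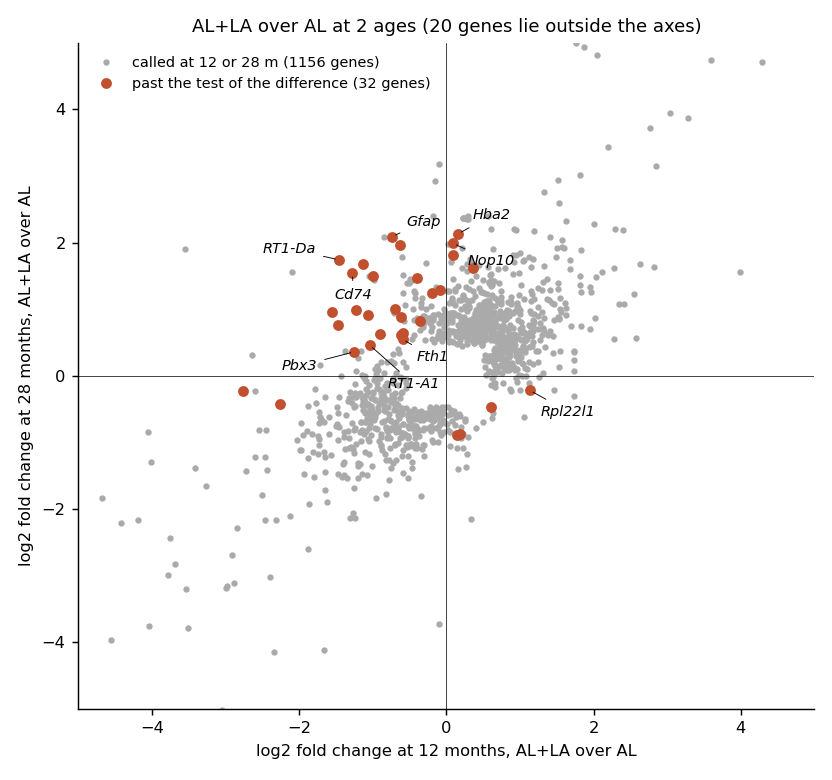
Log2 fold change of AL+LA over AL at 12 months (x axis) and at 28 months (y axis) for the 1156 genes DE at either age and not past the interaction (grey) and the 32 past it (red). Most grey points lie in the quadrants of equal sign, and 22 of the red points lie at the upper left, among them Gfap at −0.73 and 2.09, while 20 genes lie outside the axes.

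Calorie-restricted rats of the same age (12 m CR, pools 13, 14 and 15, plain diet) give the level of the same genes without lipoic acid, and they were compared here by level only, since both comparisons would share the 12 m AL pools. Rps29 was at 248, 361 and 153 CPM in 12 m CR, Sod1 at 156, 210 and 152 CPM and Uqcrb (ENSRNOG00000024967) at 74.3, 108 and 76.5 CPM. For all 3 genes the 12 m CR pools, like the 12 m AL+LA pools, lay above the plain AL pools. Shank1 was at 52.8, 28.3 and 32.2 CPM, below the 73.3 to 135 CPM of 12 m AL, and Gfap at 246, 226 and 315 CPM, below both ad libitum groups. Ftl was at 13.4, 14.95 and 5.69 CPM, close to the range of 12 m AL and below the 27.8 to 44.9 CPM of 12 m AL+LA. ENSRNOG00000047746 was at 3581, 4776 and 3233 CPM, also far below its level in 12 m AL.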

How the data were processed

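Cerebral cortex RNA of 39 libraries, each a pool of 2 male BN rats, was sequenced by the authors after RiboMinus depletion as 75-bp forward SOLiD reads, aligned with Bowtie as colour-space reads to rn5 (Rnor_5.0, Ensembl release 71), allowing 2 mismatches and discarding reads with several matches, and assigned to genes by HTSeq-count. The deposited values are raw counts for 26123 genes, and the last 5 lines of each file, which name no gene, were left out. Discarding reads with several matches removes reads of genes that have close copies.

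Genes with at least 1 CPM in at least 3 of the 39 libraries (17230) were scaled by TMM and compared in a fit of the 6 libraries with edgeR 4.0.16 (R 4.3.3), using the quasi-likelihood test and Benjamini-Hochberg adjustment over all genes tested, at 0.05. Log2 fold changes are AL+LA over AL, and a standard error (SE) is the log2 fold change divided by the square root of F. CPM values are TMM-scaled over 39 libraries. The interaction with age was fitted over 12 libraries. Reads on genes ran from 494091 to 5214247 in the 6 libraries, which sets the precision of genes with few reads. The labels do not say how pools were drawn from cages or extraction days, so p-values measure the spread between pools.

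Alternatives were each pool left out, DESeq2 1.42.0, limma 3.58.1 (voom with sample quality weights), edgeR's exact test, RLE scaling, 2 other filters, Rn28s left out, thinning to the depth of pool 5 and a fit of all 39 libraries. The fits without pools 5 and 6 and with the cerebellar score were chosen after seeing the data. Some genes are not reported here. Genes named are otherwise the 15 in each direction that lead by adjusted p, carry a symbol and do not overlap between groups, the 5 DE only with and only without pool 5, members of the 33 gene lists, genes picked in earlier results, the leading genes of the interaction and genes DE at both ages. The comparison and the lists were chosen with earlier results of these data known. Names come from the study's supplementary tables of DE genes, 1669 of the identifiers tested, and cover 167 of 548 list members. No positions are given for genes, since no annotation of rn5 was used. Promoter sequences are from RefSeq (GRCr8).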

Additional observations from a re-analysis of the deposited data

Results flagged for a closer look

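The log2 fold change of AL+LA over AL differed between 12 and 28 months for 32 genes, by the interaction of diet and age in edgeR's quasi-likelihood test. Whether lipoic acid or a difference between the plain-diet libraries at 12 and at 28 months lies behind this was not tested. Differences below are the log2 fold change at 28 months minus that at 12 months. They were 2.81 for Gfap, 2.80 for Cd74 and 2.80 for RT1-Ba, which had log2 fold changes below 0 at 12 months and above 0 at 28 months, 1.49 for RT1-A1, 1.13 for Fth1, 1.59 for Pbx3 and 2.49 for Itgam, a gene of microglia and macrophages. For the haemoglobin genes Hba-a2 and Hba2 the differences were 1.71 and 1.96, with log2 fold changes of 0.09 and 0.16 at 12 months and 1.81 and 2.13 at 28 months, and these genes mark blood left in the tissue. Nop10, a protein of small nucleolar RNA particles, had a difference of 1.88, and Rpl22l1 one of −1.37. In plain-diet rats Nop10 was at 24.1 to 34.2 CPM at 12 months and 6.38 to 8.77 CPM at 28 months, and in supplemented rats at 26.8 to 34.3 and 27.7 to 31.8 CPM. The groups of 3 pools are too small for a test of single outlying pools.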

How the results depend on the processing

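The count of 547 DE genes was 193 to 953 with 1 pool left out. It was 336 with limma voom and quality weights, 1052 without a filter, 357 with at least 10 counts in each of the 6 libraries, 304 with 5 libraries thinned to the depth of pool 5, 1207 in 1 fit of all 39 libraries and 238 with the cerebellar score, in which 65.5% of the DE genes were higher, in place of 53.7%. DESeq2, the exact test, RLE scaling and the fit without Rn28s gave 459, 790, 519 and 548. The cause of these differences was not tested, other than that thinning and leaving out pools remove reads or samples. The count of 32 genes past the interaction was 9 to 106 with 1 pool left out, 185 without a filter, 4 without pools 5, 6, 7 and 9 and 96 with the cerebellar score. The difference in reads not aligned was 6.25 percentage points with all pools and 7.50 without pool 5, and that in aligned reads on no gene was −2.40. Of the 65 named genes that passed, 54 still did without pool 5, 52 without pools 5 and 6 and 44 with the score. Signs turned without pools 5 and 6 for Zic2 (0.10), Gabra6 (0.28), Car8 (0.28), COX2 (0.20), ATP8 (0.14) and Rn28s (−0.05), and with the score for Car8 (0.32), COX2 (0.16) and Rn28s (−0.14). With 1 pool left out the log2 fold change was −0.22 to 0.02 for COX2, −0.31 to 0.08 for ATP8, −0.09 to 0.24 for Prkag2, −0.45 to 0.06 for C1qc, −0.18 to 0.60 for Hba-a2, −0.04 to 0.55 for Hba2 and −0.06 to 0.30 for Nop10. Signs also turned after thinning for Prkag2 (−0.10), C1qc (0.03) and Nop10 (−0.04). Of these Zic2, Gabra6 and Car8 had passed. No paired analysis was possible because the pools of the diets carry different numbers.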
